A study of Saccharomyces cerevisiae with 6 samples.

Results

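The large subunit of the cytosolic ribosome was followed through the transcripts of its protein genes in budding yeast, Saccharomyces cerevisiae. The genes were all those whose symbol in the array's annotation was RPL with a number and an optional A or B, or RPP with 0, 1 or 2 and an optional A or B. By this rule 76 of 5449 yeast genes on the array were found. Among them RPP1 encodes a subunit of RNase P and RNase MRP, enzymes that process RNA, and no protein of the ribosome. It is given on its own, and the other 75 genes are described here. Of these, 11 have no A or B in their name and 64 do. A further 6 genes whose symbols follow the rule in the yeast reference names were not named by any probe set used here and were not analysed.

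RNA came from cells that overexpressed Med3 fused to the glutathione S-transferase tag (Med3-GST, written with the tag first in the sample labels) or the tag alone (GST). Med3, encoded by PGD1, belongs to the Med15 module of Mediator, the complex that links transcription activators to RNA polymerase II. Both proteins were made from a plasmid under the GAL1/10 promoter in synthetic galactose medium without uracil, for 48 h, so the GST cells carried the same kind of plasmid and grew on the same sugar. The strains listed by the authors derive from BY4741, which is MATa and has deletions in HIS3, LEU2, MET15 and URA3. Which of the listed strains gave the RNA is not stated. Each group had 3 biological replicates, called A, B and C, each hybridized to 1 Affymetrix Yeast Genome 2.0 Array, and RNA came from whole cultures, in which fewer cells expressing a gene and less RNA per cell cannot be told apart.

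The large subunit carries the site where peptide bonds form and the tunnel through which the new protein leaves. Its proteins are made in the cytoplasm, carried to the nucleolus and joined to ribosomal RNA, and most of them are encoded by a pair of A and B genes that were left by a duplication of the yeast genome. Ribosomal protein genes are among the most strongly transcribed genes of growing yeast, mainly through the factors Rap1, Fhl1 and Ifh1, and their transcripts usually change together when growth conditions change.

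Values are the log2 of the deposited array signal of a probe set, which is a group of short oligonucleotides for 1 transcript or a few, and a difference is the mean of the Med3-GST arrays minus the mean of the GST arrays. A gene was counted as higher or lower where the adjusted p of limma over all 5498 yeast probe sets was under 0.05. In the values as deposited, limma took a single spread over all of them, and the standard error of each difference was 0.05. The median of all probe sets was 9.96, 9.87 and 9.99 on the Med3-GST arrays and 10.08, 9.99 and 10.04 on the GST arrays, and the median difference over all probe sets was -0.08. Therefore each result was also computed with every array centred on its own median, which raised every difference by 0.10. PGD1 read 11.81 ± 0.07 in Med3-GST cells and 8.11 ± 0.12 in GST cells (SD, n = 3 each), a difference of 3.70 in the direction of the labels, to which the chromosomal and the plasmid copy may both contribute. Transcripts of the a mating type were present in both groups (STE2 12.47 in Med3-GST cells and 12.37 in GST cells), whereas the alpha-factor gene MF(ALPHA)1 read 6.88 in Med3-GST cells and 6.64 in GST cells. The alpha-cell gene STE3 read 7.95 in Med3-GST cells and 8.41 in GST cells. STE3 was lower by 0.45, while MF(ALPHA)1 and MF(ALPHA)2 were higher by 0.24 and 0.29. Of the a-cell genes, MFA1, BAR1 and MFA2 were higher by 0.70, 0.70 and 0.52, while STE2 and STE6 did not pass the test. Probe sets for fission yeast, which was not in the cultures, had a median of 6.04 and a 95th percentile of 7.50. MF(ALPHA)1 and MF(ALPHA)2 read below this percentile in both groups, so their differences lie within the range of such background signals.

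As a group, the large subunit genes leaned upwards by a small amount. Signals of 33 of the 75 genes (44.0%) were higher in Med3-GST cells, those of 7 (9.33%) were lower, and 35 did not pass the test. Over all probe sets, 27.1% were higher and 47.8% were lower. The median difference of the 75 genes was 0.09, and the middle part of the list lay between -0.01 and 0.19. None of the 75 differences reached 0.5 in size, and 9 genes were more than 0.3 higher. With each array centred, 61 genes (81.3%) were higher and 3 lower, against 43.6% and 41.7% of all probe sets, and the median was 0.19. The 33 genes called higher as deposited were also called higher after centring. Of the 7 called lower, 3 were also called lower after centring (RPL17A, RPL8A and RPL15B), and no gene was called in opposite directions under the 2 scalings.

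The arrays of the groups were separated less often for these genes than over the array as a whole. All 3 Med3-GST arrays read above all 3 GST arrays for 35 genes, and all 3 read below them for 7, while 33 of the 75 genes overlapped. Of all 5449 genes, each read by its brightest probe set, 1352 overlapped. Over all probe sets, 26.6% had every Med3-GST array above every GST array and 48.4% had the reverse. Replicates were close, with a median SD of 0.06 in Med3-GST cells and 0.05 in GST cells over the 75 genes (n = 3 each). Array B had the lowest median of its group in both conditions, and it was also the lowest array of most genes described below.

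**Figure D1:**
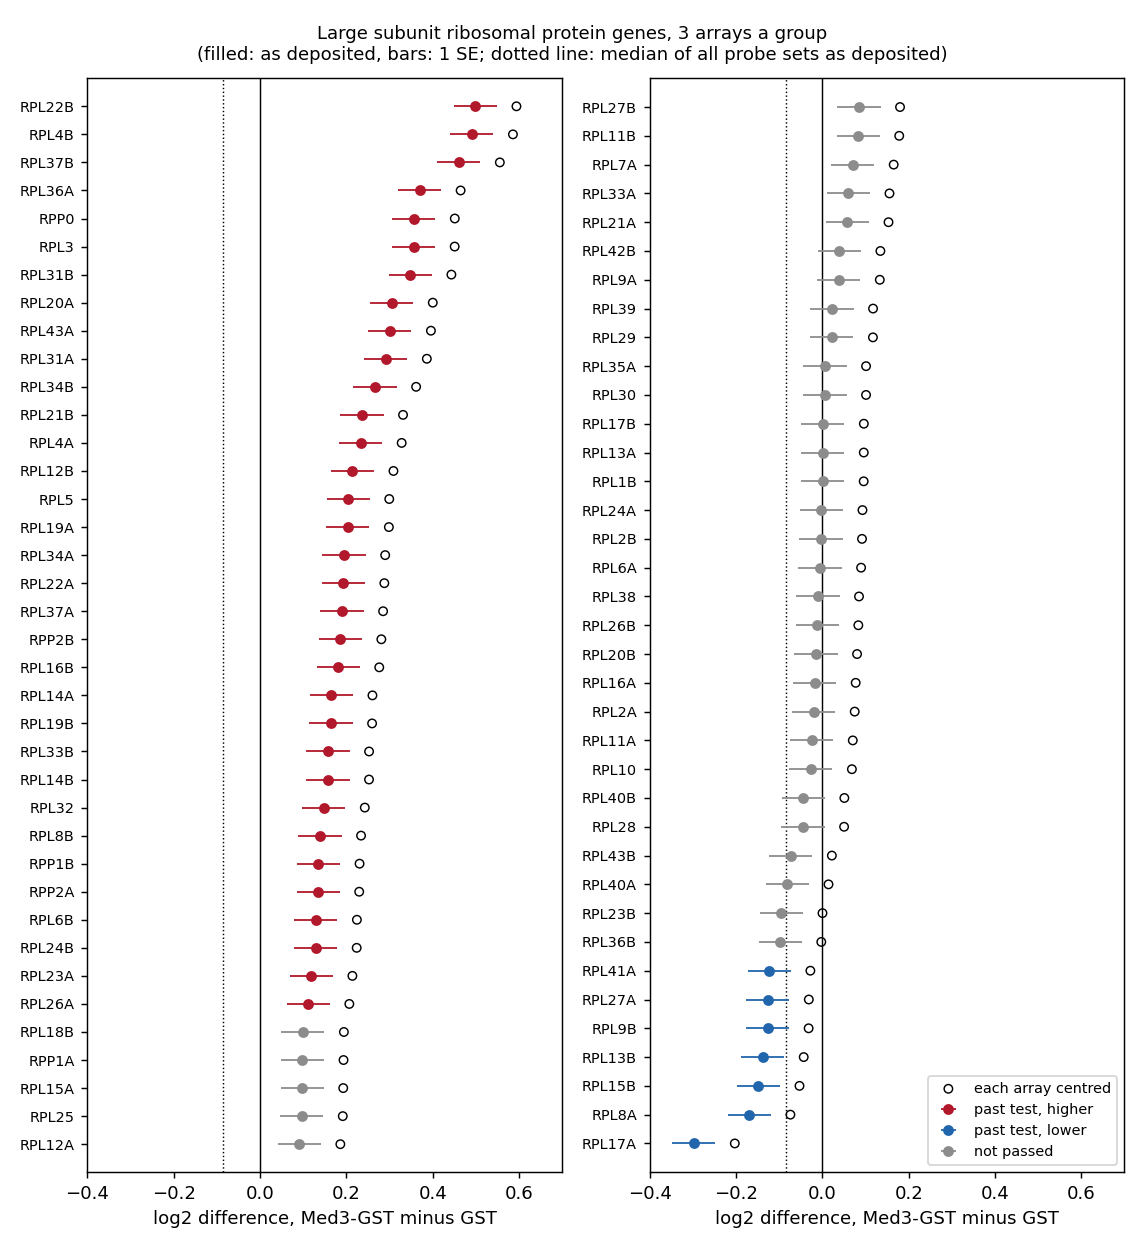
Difference in log2 signal (Med3-GST minus GST, horizontal axis) of each of the 75 large subunit genes, sorted by size, as deposited (filled points, bars 1 SE, 3 arrays a group) and with each array centred (open points). The 33 red genes were higher and the 7 blue genes lower past the test, and the dotted line marks the median of all probe sets, -0.08.

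The largest increases were seen in RPL22B, RPL4B and RPL37B, each of which is the B gene of its pair. RPL22B (YFL034C-A), whose transcript is spliced poorly when its own protein is abundant, read 11.37, 11.27 and 11.40 in Med3-GST cells and 10.89, 10.80 and 10.85 in GST cells. This is a difference of 0.50, or 1.41-fold (adjusted p = 1.48e-22 by limma). RPL4B (YDR012W), for a protein that reaches into the wall of the exit tunnel, read 12.32, 12.18 and 12.35 in Med3-GST cells and 11.84, 11.75 and 11.78 in GST cells, a difference of 0.49. The groups did not overlap for either gene, and each difference was several times the SD within a group. RPL37B (YDR500C), for a small zinc-binding protein, read 13.17, 13.09 and 13.27 in Med3-GST cells and 12.76, 12.65 and 12.75 in GST cells, a difference of 0.46.

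Next came RPL36A, RPP0 and RPL3. RPL36A read 12.89, 12.79 and 12.90 in Med3-GST cells and 12.51, 12.45 and 12.50 in GST cells (difference 0.37). RPL3, a protein close to the peptidyl transferase centre that is encoded by 1 gene, read 13.19, 13.09 and 13.21 in Med3-GST cells and 12.86, 12.72 and 12.83 in GST cells (difference 0.36). In both genes the lowest Med3-GST array was above the highest GST array. The next genes in order were RPL31B (0.35), RPL20A (0.30), RPL43A (0.30) and RPL31A (0.29). Rpl31 lies at the exit of the tunnel, and its 2 genes were both higher.

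The 7 genes that were lower had smaller differences. RPL17A (YKL180W), for a protein of the tunnel constriction, read 12.95, 12.83 and 12.92 in Med3-GST cells and 13.22, 13.16 and 13.21 in GST cells. Its difference of -0.30 was the only one of the list below -0.2, and all 3 Med3-GST arrays read below all GST arrays. RPL8A, for a protein that binds ribosomal RNA during early assembly, read 12.93, 12.85 and 12.90 in Med3-GST cells and 13.09, 13.00 and 13.09 in GST cells (difference -0.17). A second RPL8A probe set gave the opposite call, as described below. RPL15B, for a protein that contacts the 5.8S ribosomal RNA, read 10.83, 10.75 and 10.87 in Med3-GST cells and 11.00, 10.94 and 10.96 in GST cells (difference -0.15). These 3 genes were also lower after centring, by 0.20, 0.07 and 0.05.

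The other 4 genes did not pass the test once arrays were centred. RPL13B read 12.99, 12.88 and 12.97 in Med3-GST cells and 13.12, 13.03 and 13.10 in GST cells, a difference of -0.14. RPL9B read 12.15, 12.01 and 12.13 in Med3-GST cells, against 12.24, 12.19 and 12.23 in GST cells. RPL27A read 13.08, 12.97 and 13.08 in Med3-GST cells, against 13.18, 13.13 and 13.20 in GST cells. Both differed by -0.13 without overlap between the groups, and RPL41A, for the smallest protein of the ribosome and read by a probe set with shared probes, differed by -0.12 with overlap. The call of RPL13B was lost without GST array C, and those of RPL9B and RPL27A were lost without Med3-GST array B or without GST array C.

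**Figure D2:**
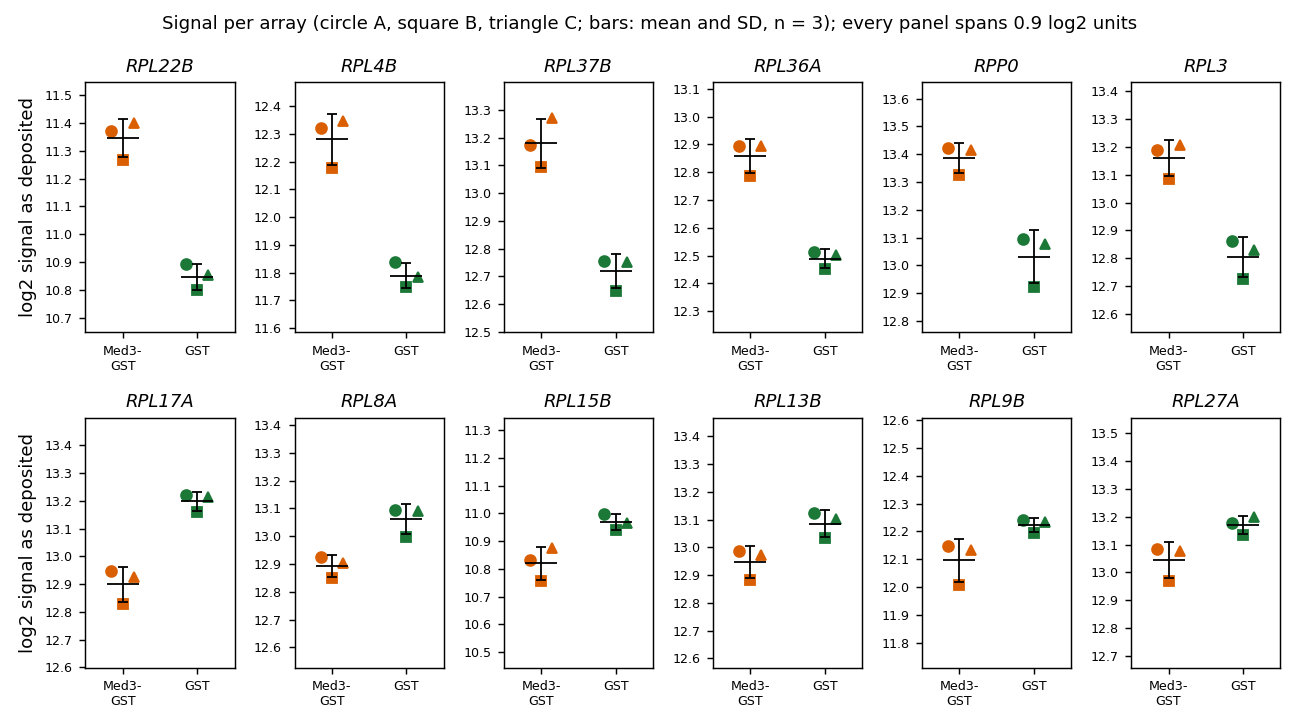
Log2 signal on each array (circle A, square B, triangle C) for the 6 genes with the largest increases (upper panels) and the 6 with the largest decreases (lower panels) among those without overlap, Med3-GST left and GST right, with mean and SD (n = 3 each). Each panel spans 0.9 log2 units, and the upper genes are separated by 0.36 to 0.50 while the lower genes are separated by 0.13 to 0.30.

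The stalk of the large subunit, which recruits the translation factors that hydrolyse GTP, was higher in 4 of its 5 genes. This is 80% of the list, against 27.1% of all probe sets, and none was lower, against 47.8%. RPP0, which encodes the base of the stalk, read 13.42, 13.33 and 13.41 in Med3-GST cells and 13.09, 12.92 and 13.08 in GST cells, a difference of 0.36. The acidic proteins that form the mobile arms differed less. RPP2B read 13.54, 13.47 and 13.54 in Med3-GST cells and 13.34, 13.30 and 13.36 in GST cells (0.19). RPP1B read 13.42, 13.31 and 13.36 in Med3-GST cells and 13.28, 13.16 and 13.25 in GST cells (0.14). RPP2A read 13.12, 13.10 and 13.14 in Med3-GST cells and 13.02, 12.93 and 13.01 in GST cells (0.13). The groups of these 3 genes did not overlap, but RPP1B lost its call without Med3-GST array A or without GST array B, and RPP2A lost it without GST array B. RPP1A, at 13.24, 13.17 and 13.26 in Med3-GST cells and 13.14, 13.05 and 13.18 in GST cells, did not pass the test as deposited (difference 0.10, adjusted p = 0.0653 by limma) and passed it after centring.

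Rpl5 and Rpl11 bind the 5S ribosomal RNA and enter the subunit together with it. RPL5 read 13.45, 13.43 and 13.50 in Med3-GST cells and 13.31, 13.16 and 13.29 in GST cells, and its difference of 0.20 passed the test without overlap. RPL11A read 12.84, 12.68 and 12.83 in Med3-GST cells and 12.77, 12.83 and 12.84 in GST cells, so that the groups overlapped (difference -0.02). RPL11B was counted by its brightest probe set, which can also read other transcripts, and did not pass the test (0.08). A dimmer RPL11B probe set, not marked as reading other transcripts, read 13.45, 13.34 and 13.45 in Med3-GST cells and 13.04, 12.95 and 13.02 in GST cells, which was 0.41 higher.

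Some ribosomal proteins limit their own synthesis by holding back the splicing of their transcripts. RPL22A, the second gene of Rpl22, read 13.12, 13.03 and 13.11 in Med3-GST cells and 12.96, 12.82 and 12.91 in GST cells, a difference of 0.19, and so both RPL22 genes were higher. RPL30, whose protein binds its own transcript, read 13.67, 13.60 and 13.68 in Med3-GST cells and 13.66, 13.58 and 13.69 in GST cells. Its groups overlapped and its difference was 0.01. RPL30 passed the test only under scalings that shift all genes of an array, at 0.10 after centring.

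Proteins at the exit of the tunnel, where new chains meet the factors that fold or target them, were measured for 12 of 13 listed genes. Of these, 5 were higher (RPL31B, RPL31A, RPL19A, RPL19B and RPL26A), 1 was lower (RPL17A) and 6 did not pass, with a median of 0.06. These are 41.7% higher and 8.33% lower, against 27.1% and 47.8% of all probe sets. With each array centred, 11 of the 12 were higher (91.7%, against 43.6% of all probe sets) and 1 was lower. RPL25, the docking site of the signal recognition particle, had a difference of 0.10 and did not pass the test as deposited. Proteins that join late, in the cytoplasm, were measured for 7 of 8 listed genes. Only RPL24B was higher (0.13), which is 14.3% of the list against 27.1% of all probe sets, and none was lower, against 47.8%. RPL10, which joins among the last and completes the catalytic centre, differed by -0.03. After centring, 5 of the 7 were higher (71.4%, against 43.6% of all probe sets). The 11 genes without A or B in their name had 4 higher (RPP0, RPL3, RPL5 and RPL32) and 0 lower with a median of 0.02 (36.4% higher, against 27.1% of all probe sets), and the 64 with A or B had 29 higher and 7 lower with a median of 0.09 (45.3% higher and 10.9% lower). The order of these shares changed with scaling. After centring, 10 of the 11 (90.9%) and 51 of the 64 (79.7%) were higher, against 43.6% of all probe sets.

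Signals of these genes lay near the top of the range of the array. Their means over the 6 arrays ran between 10.89 and 13.86 with a median of 13.08, whereas the median of all probe sets was 9.97 and the brightest read 13.97. Mean signal was above 12 for 73 genes and above 13 for 46. Since probe sets differ in brightness, these signals do not rank the transcripts. Among 478 probe sets with a mean above 12 that belonged to neither ribosomal subunit, 95 (19.9%) were higher and 232 (48.5%) were lower, with a median difference of -0.09. Among 105 such probe sets above 13, 12.4% were higher and 43.8% lower. Across the 75 genes, mean signal and difference were weakly related (Pearson r = -0.20, Spearman rho = -0.15, n = 75 genes that share the same 6 arrays). Whether signals this bright understate changes was not tested.

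**Figure D3:**
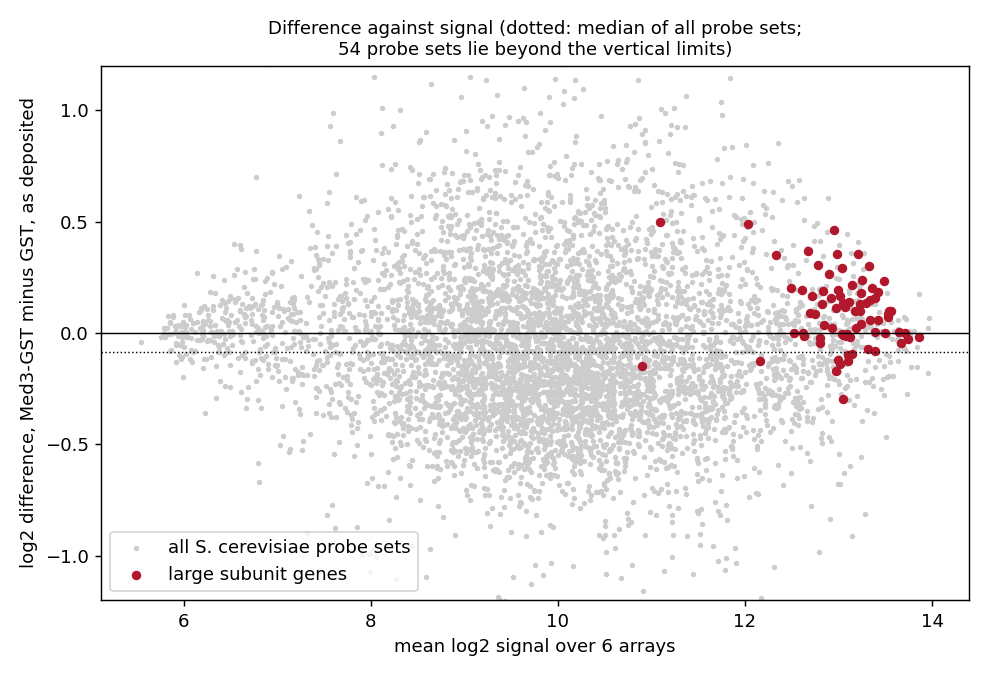
Difference in log2 signal (Med3-GST minus GST, as deposited, vertical axis) against mean log2 signal over the 6 arrays (horizontal axis) for all probe sets (grey) and the 75 large subunit genes (red). The red points lie between 10.89 and 13.86 on the horizontal axis with a median difference of 0.09, above the dotted median of all probe sets at -0.08, and 54 grey points lie beyond the vertical limits of 1.2.

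Both genes of a pair encode nearly the same protein, and 29 complete A and B pairs could be set against each other. For each array the B signal was subtracted from the A signal, which removes any offset of the whole array, and the change of this value between groups was tested in limma over all 52 such pairs of the array. Each gene was read with its brightest probe set lacking the suffix that marks probes shared between transcripts, where it had one. Of the 29 pairs, 24 (82.8%) changed unequally, 23 of them without overlap between groups. Over all 52 pairs this share was 73.1%, and 14 of the other 23 pairs were called. The B gene gained on the A gene in 16 of the 24 pairs and the A gene gained in 8. Called changes ran between 0.07 and 0.47 in size.

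RPL36 had the largest unequal change. RPL36A was higher, as described above, while RPL36B read 13.09, 12.97 and 13.08 in Med3-GST cells and 13.18, 13.08 and 13.17 in GST cells (difference -0.10, not passed). RPL36A gained 0.47 ± 0.02 (SE) on RPL36B (adjusted p = 2.14e-11 by limma over the 52 pairs). In RPL43, another zinc-binding protein, the A gene read 13.51, 13.44 and 13.47 in Med3-GST cells and 13.21, 13.12 and 13.18 in GST cells. RPL43B read 13.29, 13.22 and 13.32 in Med3-GST cells and 13.34, 13.32 and 13.38 in GST cells. The arrays of RPL43A lay above in Med3-GST cells and those of RPL43B below, without overlap in either gene, but RPL43B did not pass the test (difference -0.07), and A gained 0.37 ± 0.03 on B.

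In RPL20 the A gene read 12.99, 12.85 and 12.98 in Med3-GST cells and 12.66, 12.61 and 12.62 in GST cells. RPL20B read 13.11, 13.00 and 13.10 in Med3-GST cells and 13.10, 13.06 and 13.09 in GST cells, with overlap, and A gained 0.32 ± 0.02. RPL11 ran the other way, since RPL11B gained 0.43 ± 0.03 on RPL11A when its probe set lacking the suffix for shared probes was used. This value rests on the probe set. With the brightest RPL11B probe set the gain of B was called at 0.11.

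RPL8 was the only pair in which 1 gene was higher and the other lower as deposited. RPL8B read 13.21, 13.13 and 13.21 in Med3-GST cells and 13.06, 12.99 and 13.08 in GST cells (0.14), so that no GST array reached the lowest Med3-GST array, whereas RPL8A was lower. The unequal change was 0.31 ± 0.02 in favour of RPL8B. Both results rest on the RPL8A probe set lacking the suffix for shared probes, since the other RPL8A probe set was higher by 0.11. In RPL17, RPL17B read 12.67, 12.54 and 12.66 in Med3-GST cells and 12.69, 12.55 and 12.64 in GST cells. RPL17B therefore overlapped between groups while RPL17A was lower, and B gained 0.30 ± 0.03.

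RPL22 and RPL37 had both genes higher, with the B gene more so. RPL22B gained 0.31 ± 0.03 on RPL22A. RPL37A read 12.98, 12.85 and 12.96 in Med3-GST cells and 12.78, 12.69 and 12.75 in GST cells (0.19), and RPL37B gained 0.27 ± 0.03 on it. RPL4B gained 0.26 on RPL4A, although 1 of these 2 probe sets carried the suffix for shared probes.

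Among the 24 pairs, 12 had 1 gene higher and the other not passed, 5 had 1 gene lower and the other not passed, 5 had both higher, 1 had a gene each way and 1 had neither past the test. In 5 pairs (RPL31, RPP2, RPL19, RPP1A with RPP1B, and RPL40) the test was not passed. The 95% intervals of their changes lay within -0.13 and 0.09, so that a difference between their genes as large as in RPL36 or RPL43 is outside them. A change of the size called in RPL34 (0.07) lies inside each of them in 1 direction. These pairs were therefore not shown to change equally. After centring each array, 3 pairs had a gene each way, since centring moves the calls of single genes but not the change within a pair.

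**Figure D4:**
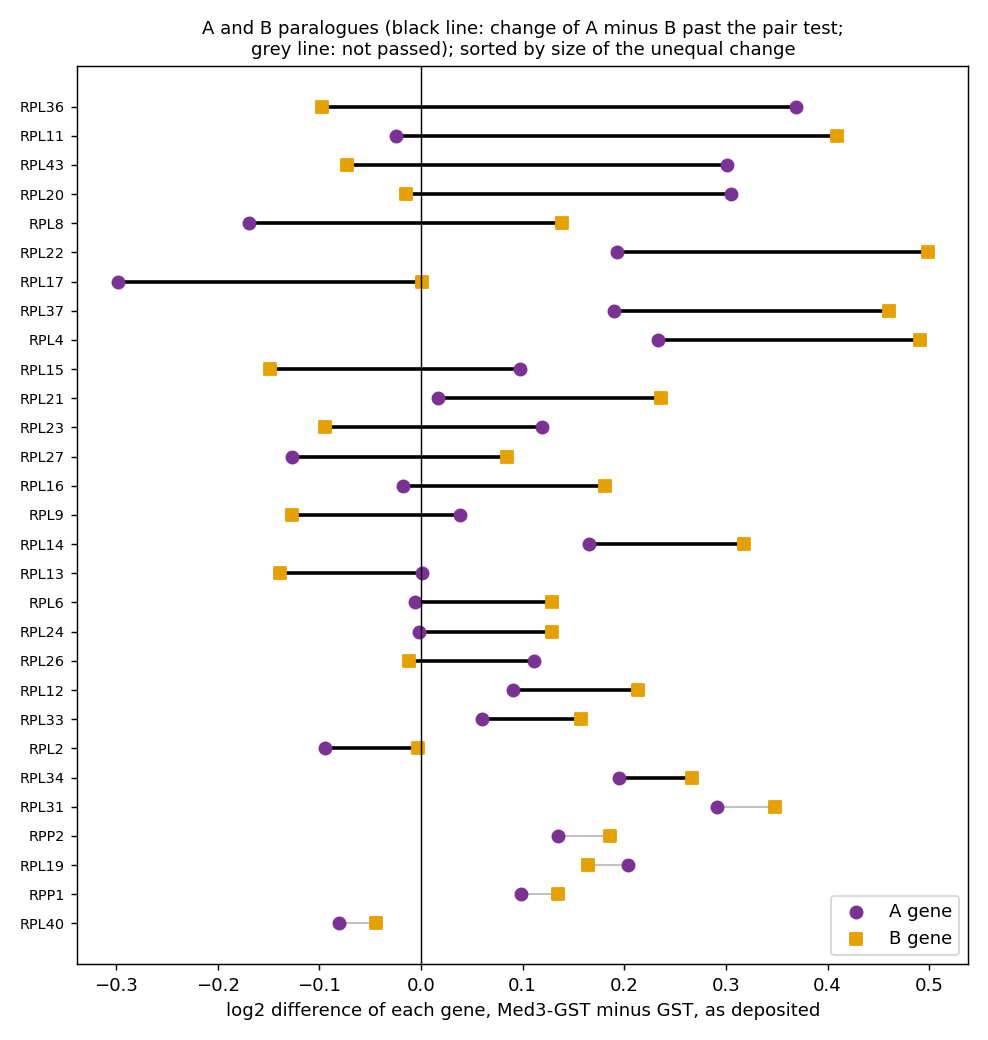
Difference in log2 signal (Med3-GST minus GST, as deposited, horizontal axis) of the A gene (circle) and the B gene (square) of each of 29 pairs, sorted by the size of the unequal change. Black lines mark the 24 pairs past the pair test, led by RPL36 at 0.47, and grey lines the 5 pairs that did not pass.

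Genes of the same pair share long stretches of coding sequence, and the probe sequences were not used here. Of the 75 genes, 64 were counted with a probe set lacking the suffix for shared probes and 11 with one that carried it. These 11 genes had 2 higher, 1 lower and 8 not passed, between -0.12 and 0.23, while 27.1% of all probe sets were higher and 47.8% lower. For 7 genes there were 2 probe sets, 1 of each kind. In RPL8A the specific probe set was lower by 0.17, but the shared one read 13.04, 12.92 and 13.02 in Med3-GST cells and 12.89, 12.86 and 12.92 in GST cells and was higher (0.11), and the mean of both did not pass. RPL18B differed by 0.35 on its specific probe set and by 0.10 on the shared one, and RPL14B by 0.32 and 0.16. RPL2A, RPL20B and RPL21A did not pass on either of their probe sets. How far a probe set reads the other gene of a pair was not tested.

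Genes of the small subunit also had more members higher than lower. Of 53 measured RPS genes, 21 were higher (39.6%, against 27.1% of all probe sets), 3 lower (5.66%, against 47.8%) and 29 not passed, with a median of 0.06. After centring, 42 were higher (79.2%, against 43.6% of all probe sets) and 2 lower (3.77%, against 41.7%). RPS14B, which is spliced poorly in the presence of its own protein, read 12.12, 12.01 and 12.14 in Med3-GST cells and 11.39, 11.22 and 11.32 in GST cells. Its difference of 0.78 and that of RPS11A (0.69) were larger than any of the large subunit, whereas RPS26A was lower by 0.23. Whether the medians of the 2 subunits differ was not tested.

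Mitochondria have a ribosome of their own, and the 34 measured genes for its large subunit (MRPL) had more members lower than higher, as the array as a whole did. Of these, 21 were lower (61.8%, against 47.8% of all probe sets), 7 higher (20.6%, against 27.1%) and 6 not passed, with a median of -0.18. After centring, 19 were lower (55.9%, against 41.7% of all probe sets) and 11 higher (32.4%, against 43.6%). MRPL1 and MRPL6 were lower by 0.51 and 0.46, and MRPL19 and MRPL44 were higher by 0.73 and 0.52.

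The large subunit is put together by assembly factors of the nucleolus, the nucleus and the cytoplasm. Of 63 such factors, 48 were higher (76.2%, against 27.1% of all probe sets), 4 lower (6.35%, against 47.8%) and 11 not passed, with a median of 0.28. After centring, 58 were higher (92.1%, against 43.6% of all probe sets) and 1 lower (1.59%, against 41.7%). RSA4, for a factor removed by the Rea1 ATPase, read 9.79, 9.76 and 9.85 in Med3-GST cells and 8.74, 8.59 and 8.67 in GST cells. This is a difference of 1.13, or 2.20-fold. ALB1, which works with Arx1 in export of the subunit, read 10.65, 10.55 and 10.62 in Med3-GST cells and 9.55, 9.50 and 9.53 in GST cells, a difference of 1.09. No GST array came near a Med3-GST array in either gene, and both differences exceeded every one among the 75 subunit genes. CIC1 (0.86) and DBP6 (0.77), which act in early nucleolar particles, followed. RPP1, the RNase P and MRP subunit that shares the naming pattern, read 9.48, 9.32 and 9.48 in Med3-GST cells and 9.00, 8.87 and 8.95 in GST cells (0.49).

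**Figure D5:**
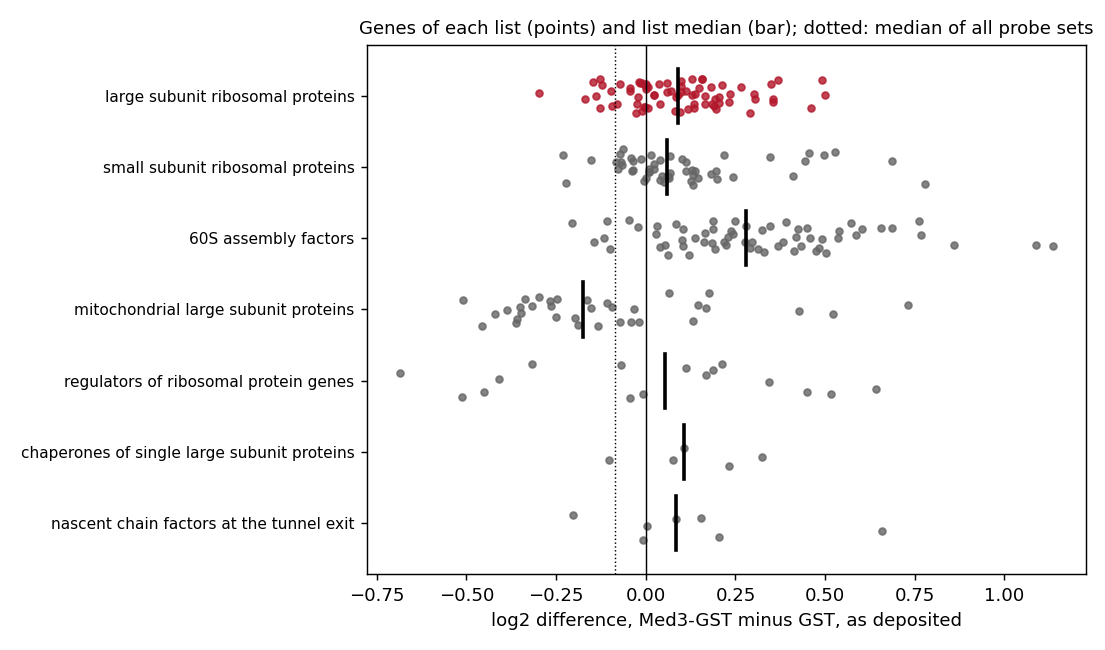
Difference in log2 signal (Med3-GST minus GST, as deposited, horizontal axis) of each gene (points) in 7 lists, with the list median (bar). The 75 large subunit genes, in red, have a median of 0.09, the 63 assembly factors one of 0.28 and the 34 mitochondrial large subunit genes one of -0.18, beside the dotted median of all probe sets at -0.08.

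Of 5 chaperones that each guard 1 large subunit protein, 3 were higher (60%, against 27.1% of all probe sets). SYO1, which carries Rpl5 and Rpl11 to the nucleus, was higher by 0.32, SQT1, the chaperone of Rpl10, by 0.23 and RRB1, the chaperone of Rpl3, by 0.11. Of 7 genes for factors that meet new chains at the tunnel exit, 3 were higher (42.9%, against 27.1%) and 1 lower (14.3%, against 47.8%). ZUO1, which docks at the tunnel exit, was higher by 0.66 and SSZ1, its partner in the same complex, was lower by 0.20. The other called genes were EGD1 (0.20) and BTT1 (0.15), subunits of the nascent polypeptide-associated complex. BTT1 was dim, at 7.89 in Med3-GST cells and 7.74 in GST cells, near the 95th percentile of fission yeast probe sets (7.50).

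Regulators of ribosomal protein genes had members called in both directions. Of 16, 8 were higher (50%, against 27.1% of all probe sets), 5 lower (31.2%, against 47.8%) and 3 not passed. The largest differences belonged to CRF1, a corepressor, which read 8.77, 8.70 and 8.81 in Med3-GST cells and 9.48, 9.42 and 9.43 in GST cells (-0.69), and to SCH9, a kinase that promotes ribosome synthesis, which read 9.45, 9.43 and 9.47 in Med3-GST cells and 8.87, 8.74 and 8.83 in GST cells (0.64). Neither gene overlapped between groups. The repressors TOD6 and DOT6, which bind the same element in promoters of assembly genes, differed in opposite directions by 0.52 and -0.51. Of the activators of the ribosomal protein genes, RAP1 was 0.34 and IFH1 0.11 higher, IFH1 with overlap between groups, whereas FHL1 (-0.07) and SFP1 (-0.01) did not pass as deposited. SFP1 passed as higher after centring. Of the other called regulators, HMO1 (0.45), TBF1 (0.21), MRS6 (0.19) and STB3 (0.17) were higher, while TOR1 (-0.45), TOR2 (-0.41) and ABF1 (-0.32) were lower.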

How the data were processed

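RNA of 3 Med3-GST and 3 GST cultures was hybridized by the authors to Affymetrix Yeast Genome 2.0 Arrays. The authors deposited log10 signals, normalized within each experiment according to the methods, and how background was corrected and probes were summarised is not stated in the sources. The deposited log10 values were converted to log2. The 5498 probe sets annotated to S. cerevisiae, of 10928, were tested with limma 3.58.1 (lmFit and eBayes, two-sided) in R 4.3.3, with Benjamini-Hochberg adjustment over all of them and a threshold of 0.05, and the procedure was tested on simulated data. A gene was read by its brightest probe set. Nothing says that cultures were independent beyond the term biological replicate, so p-values rest only on spread between the 3 arrays of a group. For the values as deposited this spread was pooled over all probe sets, and it is not that of each gene's own arrays. An exact permutation of 3 against 3 cannot go below 0.1 and was not used.

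Members and gene lists were chosen with earlier results of these data known. Values per array are given for up to 6 increases and 6 decreases past the test without overlap, for both genes of 8 pairs, for the stalk, 5S and autoregulated genes, and up to 4 called genes are named in each other list. Further genes were named after their values were seen. Alternatives were centring, quantile normalization, a trend, a replicate block, other probe set choices, leaving out dim probe sets, background subtraction and leaving out each array.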

Additional observations from a re-analysis of the deposited data

How the results depend on the processing

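The lean of the large subunit genes kept its direction, while its size moved with scaling. The 33 genes higher became 61 with each array centred, 61 with centring and a replicate block, and 61 with the fission yeast background subtracted before centring, an alternative chosen after seeing the data. The 7 genes lower became 3, 2 and 3 under the same settings, and the median difference of 0.09 became 0.19 under each of them. Quantile normalization gave 48 higher and 10 lower. Leaving out 1 array gave 27 to 40 genes higher and 3 to 9 lower, with 4 lower without Med3-GST array B and 3 without GST array C, and a median of 0.07 to 0.12. After centring it gave 57 to 61 higher and 1 to 4 lower, with 1 lower without Med3-GST array C or without GST array C (chosen after seeing the data). Array B had the lowest median in both groups, but beyond such offsets of whole arrays the deviations of same-lettered arrays correlated across probe sets at only 0.04, 0.03 and 0.06, so the letters were not taken to pair the arrays. A paired fit with the replicate block gave 41 genes higher, 11 lower and 24 unequal pairs, and RPP1A and RPL11B passed the test in it. The count of 24 unequal pairs ran between 22 and 27 under all alternatives, and the 8 named pairs were called in the same direction in each. Of the calls of 21 named genes under alternatives, 278 stayed on the same side of the threshold, 18 passed it, 19 no longer did, and 0 reversed. Quantile and centred calls of genes near the threshold, such as RPL30, rest on scaling. Precision is limited by 3 arrays a group, and for the values as deposited the spread was shared over all probe sets.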

Other observations

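Among the 1747 probe sets annotated to fission yeast, 7 were named for large subunit genes, and these were outside all comparisons. Probe sets without an annotation were not searched. Of these, only rpl13 was above the 95th percentile of fission yeast probe sets, at 8.31, 8.31 and 8.42 on the Med3-GST arrays and 8.03, 8.20 and 8.11 on the GST arrays (log2 signal). The percentile itself was 7.50. The other 6 averaged at most 7.14 in Med3-GST cells and at most 7.13 in GST cells.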
